A study of Mus musculus with 8 samples.

Results

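The 10 genes described here are Kctd12, Cyfip2, Heph, Jakmip2, Ogfrl1, Rgs2, Stox2, Tbc1d9, Hectd2 and Klhl13, out of 24062 genes in the count table. They were picked by name because they had close to 0 counts in fibroblasts without the EZH1/2 inhibitor DS3201 and were clearly counted with it, at 54 to 1383 counts in each library that received DS3201. The rule gave no number for close to 0. Their rise with DS3201 is therefore how they were chosen, and it is given here as a description that supports nothing. The question put to them is which also leak when Ring1a alone is lowered. The choice capped their counts in the knockdown and control libraries alike, so it limits how large a leak could be.

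All libraries came from immortalized mouse embryonic fibroblasts (iMEFs) of an established line labelled 6KO, knocked out for Setdb1, Suv39h1, Suv39h2, Ehmt1, Ehmt2 and Ring1b (Rnf2). By the labels the control cells thus also lack the 5 H3K9 methyltransferases and 1 of the PRC1 ubiquitin ligases. Rnf2 reads were counted in every library (26.4 to 89.0 CPM), and a count over a whole gene does not check a deletion of part of it. No cells with intact H3K9 methylation were analysed here. The combined group carried the Ring1a shRNA and received DS3201 at 1 uM for 7 days, and the inhibitor group carried the control shRNA and received the same DS3201. The knockdown group carried the Ring1a shRNA without DS3201, and the control group the control shRNA without DS3201. The shRNA against Ring1a came from a lentivirus, and cells were selected with blasticidin (BSD). The labels do not state if the line is 1 clone. Poly(A) RNA was sequenced in 2 libraries per group (n = 2), 1 from each of 2 sets that the column names mark as 20 and 28. Nothing says that the libraries of a group came from separate cultures, so the spread behind each p-value is that between libraries and may be purely technical.

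As background, Polycomb repressive complex 2 (PRC2) writes methylation on lysine 27 of histone H3 through its catalytic subunits EZH1 and EZH2, and PRC1 ubiquitinates histone H2A through RING1A or RING1B. Both marks are known to hold developmental and lineage genes silent in cells that do not use them. DS3201 blocks both EZH enzymes.

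The libraries held 12738585 to 23688253 counts each, and 3 counts, the floor used for a gene at 0, correspond to 0.122 to 0.265 CPM, the count scaled to the library's TMM-adjusted size. Ring1, the gene the shRNA targets, was 3.52 and 2.04 CPM in the combined libraries of set 20 and set 28, against 20.4 and 7.51 CPM in the inhibitor libraries. It was 4.51 and 1.41 CPM in the knockdown libraries, against 20.2 and 9.73 CPM in the control libraries. All 13 fibroblast markers examined were detected in both groups with DS3201, and 12 of them in both groups without it, where Lum was at 0 counts. Their summed level was 14314 to 17115 CPM over the 4 libraries with DS3201, against 21005 to 23815 CPM over the 4 without it. The summed level of 8 neuronal markers was higher with DS3201, with 110.3 to 149.7 CPM in libraries with DS3201 and 67.2 to 98.5 CPM in libraries without it. In edgeR 0 of the 6 tested neuronal markers were called in either shRNA background, with or without the set as a block. In control shRNA cells 5 of the 6 had a positive estimate. Map2 had 11.6 and 91.8 CPM in inhibitor libraries, against 0.143 and 45.4 CPM in control libraries. Tubb3 had 47.2 and 19.5 CPM, against 14.8 and 13.7 CPM, and Syn1 and Eno2 had estimates of 0.13 and -0.05 log2. Snap25 and Stmn2 were at 0 counts in both groups without DS3201, and Rbfox3 in the knockdown group. The summed levels of 7 blood, 5 endothelial and 6 epithelial markers overlapped between libraries with and without DS3201. The 6 pluripotency markers summed to 5.15 to 10.8 CPM with DS3201 and 1.88 to 5.61 CPM without it, which overlap. Single markers differed within these sums. Lyz2, a myeloid lysozyme gene, was called higher with DS3201 in both shRNA backgrounds (5.27 and 5.39 CPM in inhibitor libraries, against 0.0475 and 0.268 CPM in control libraries, edgeR adjusted p = 0.0478). Esrrb, a pluripotency factor gene, was called higher in Ring1a shRNA cells (3.39 and 6.90 CPM with DS3201, 0 counts without it, edgeR adjusted p = 0.047). With the set as a block, in control shRNA cells, the fibroblast markers Pdgfra and Dcn, Tek and Esrrb were also called higher, and Pdgfrb and Itgam lower. Lyz2, Esrrb, Dcn and Tek reached at most 0.269, 0.0475, 0.404 and 0.604 CPM in libraries without DS3201. These genes passed the filter on low counts only through the groups with DS3201, so their calls were fixed in part by the filter. The part of these markers in the levels below was not tested, and in bulk RNA more cells that use a gene and more RNA per cell cannot be told apart.

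The genes with signalling roles include Kctd12, whose product is an accessory subunit of GABA-B receptors (chr14, 102976581 to 102982637, mm10). Kctd12 had 41.6 and 88.3 CPM in the combined group (values are for set 20 and then set 28 throughout), 28.9 and 51.4 CPM in the inhibitor group, 0 and 0.0673 CPM in the knockdown group, and 0 counts in both control libraries. Every library with DS3201 was far above every library without it, and set 28 was the higher set in both groups with DS3201. Rgs2 encodes a GTPase-activating protein for G protein alpha subunits of the Gq class (chr1, 143999338 to 144004161). It had 12.3 and 8.62 CPM in the combined group, 9.74 and 7.95 CPM in the inhibitor group, 1 count in each knockdown library and 0 counts in both control libraries. Jakmip2 encodes a coiled-coil protein of a family that binds Janus kinases and microtubules, known mainly from brain (chr18, 43531407 to 43687773). It had 8.16 and 11.2 CPM in the combined group and 8.66 and 23.1 CPM with the inhibitor alone, and 0 counts in all 4 libraries without DS3201. The inhibitor library of set 28 held the highest Jakmip2 level, and the other 3 libraries with DS3201 lay close together.

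The genes of the cytoskeleton, membrane traffic and metal handling followed the same pattern. Cyfip2 encodes a subunit of the WAVE complex, which drives actin branching (chr11, 46193850 to 46312859). It had 41.4 and 30.4 CPM in the combined group, 31.1 and 23.7 CPM in the inhibitor group, 1 and 0 counts in the knockdown group and 0 counts in both control libraries. Tbc1d9 encodes a protein with the TBC domain found in regulators of Rab GTPases (chr8, 83165352 to 83272934). It had 51.7 and 58.3 CPM in the combined group, 22.7 and 43.4 CPM in the inhibitor group, 1 and 5 counts in the knockdown group, and 0 and 1 counts in the control group. Heph encodes hephaestin, a copper-dependent ferroxidase known for iron export from the gut (chrX, 96455359 to 96574485). It had 14.3 and 10.9 CPM in the combined group, 20.5 and 17.0 CPM in the inhibitor group, 0 and 2 counts in the knockdown group and 0 counts in both control libraries. Heph was 1 of 2 members, with Jakmip2, whose mean was lower in the combined than in the inhibitor group.

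The remaining members act in ubiquitin transfer and the nucleus, or have no role stated here. Hectd2 encodes an E3 ubiquitin ligase of the HECT class (chr19, 36554639 to 36621135). It had 8.41 and 5.11 CPM in the combined group and 4.98 and 4.77 CPM in the inhibitor group, and 0 counts in all 4 libraries without DS3201. Klhl13 encodes a substrate adaptor of CUL3 ubiquitin ligases that acts on Aurora B in mitosis (chrX, 23219271 to 23365082). It had 6.15 and 6.13 CPM in the combined group, 3.74 and 5.65 CPM in the inhibitor group, 0 counts in both knockdown libraries, and 1 and 0 counts in the control group. Stox2 encodes a storkhead-box protein with a winged-helix domain (chr8, 47180048 to 47446362). It had 9.29 and 11.5 CPM in the combined group, 7.87 and 9.63 CPM in the inhibitor group, 0 and 2 counts in the knockdown group and 0 counts in both control libraries. Ogfrl1, a gene named for its likeness to the opioid growth factor receptor (chr1, 23366424 to 23397772), had 14.8 and 17.8 CPM in the combined group and 10.9 and 19.2 CPM in the inhibitor group. It had 16 and 17 counts (0.650 and 1.14 CPM) in the knockdown group and 0 counts in both control libraries, so that its 4 groups fell on 3 levels.

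**Figure D1:**
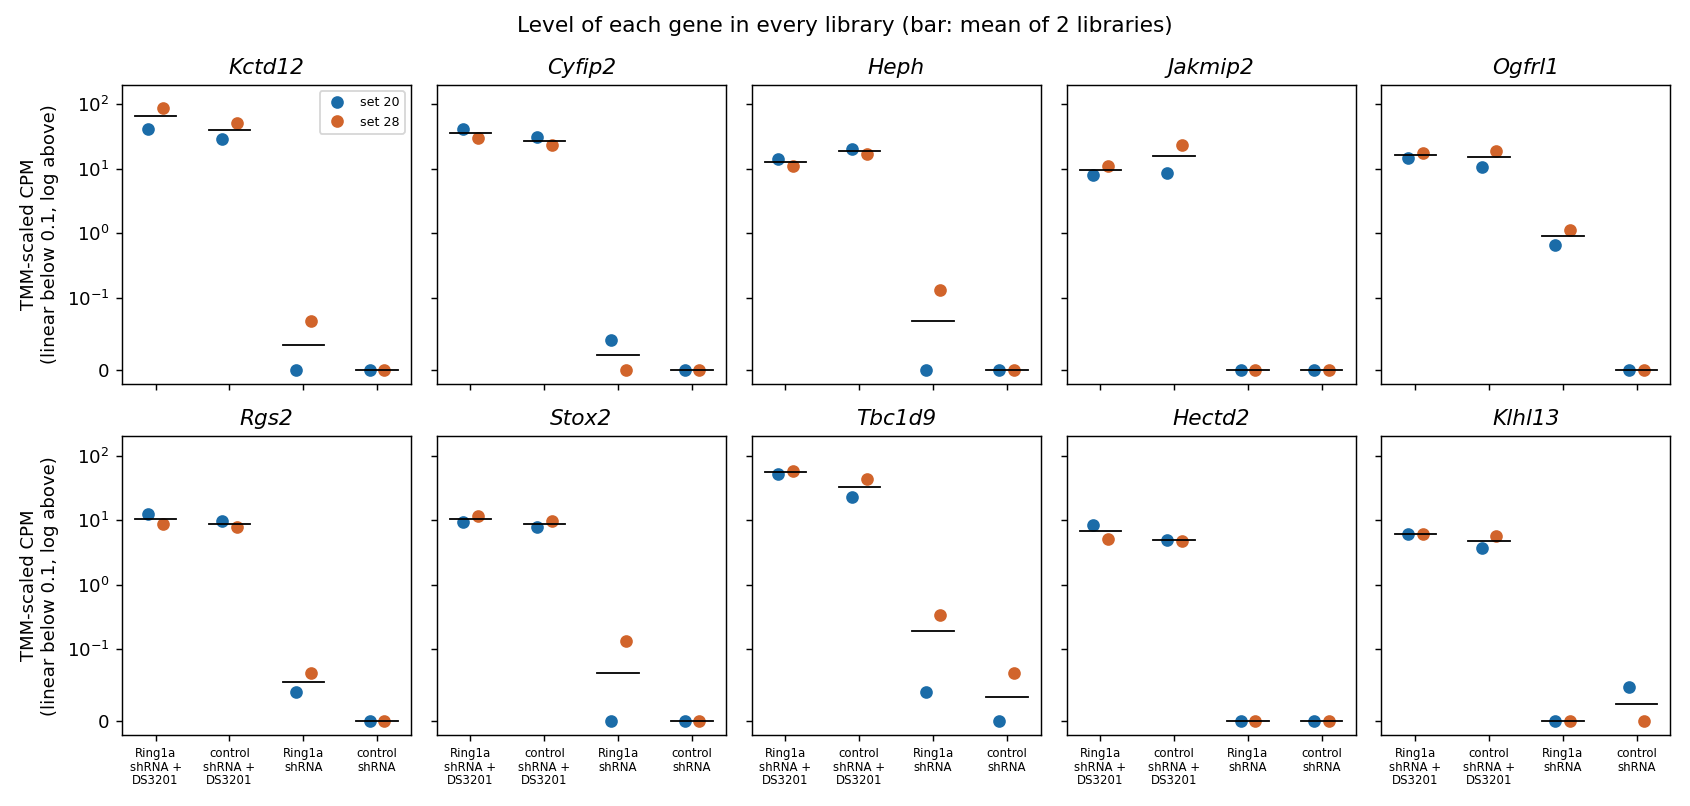
TMM-scaled CPM of each gene in every library on an axis that is linear below 0.1 and logarithmic above, by group, with points for set 20 and set 28 and a bar at the mean of 2 libraries. All 10 genes lie above 3 CPM in every library with DS3201, and Ogfrl1 alone exceeds 0.5 CPM in the knockdown libraries, where it had 0.650 and 1.14 CPM.

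Over 3 counts as the floor for a whole control group at 0 counts, the inhibitor group was at least 451-fold higher for Kctd12, 338-fold for Cyfip2, 229-fold for Heph, 172-fold for Jakmip2 and 169-fold for Ogfrl1. The bounds were at least 108-fold for Rgs2, 103-fold for Stox2 and 58.7-fold for Hectd2. Tbc1d9 and Klhl13 each had 1 control count. The inhibitor level was 1106 times the control level for Tbc1d9 (95% counting interval 198 to 43747) and 161 times for Klhl13 (28.4 to 6417). In edgeR's quasi-likelihood fit all 10 genes were called higher with DS3201 in control shRNA cells (0.757% of 14393 tested genes were), and 8 in Ring1a shRNA cells (0.639%), all but Jakmip2 and Stox2. These calls fell to 0 in both backgrounds in fits to the compared libraries alone, and without any 1 of the inhibitor or combined libraries. They fell to 0 or 1 without a control library in control shRNA cells, or a knockdown library in Ring1a shRNA cells. With the set as a block all 10 were called in both, where 6.82% of all tested genes rose and 0.75% fell with DS3201 in control shRNA cells, and 6.34% rose and 0.875% fell in Ring1a shRNA cells. The choice of the genes fixed this outcome, so nothing is read from the counts.

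The table held 8278 genes with at most 3 counts over the 4 libraries without DS3201, 34.4% of its genes. Of these, 149 genes (1.80%) had at least 1 CPM in all 4 libraries with DS3201, and 8 of the 10 members were among them. The other two members, Tbc1d9 and Ogfrl1, had more than 3 counts without DS3201, mostly in the knockdown libraries.

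Scaled by exon length, the members did not reach one common level. In the inhibitor group the highest means were those of Kctd12 with 6.63 ± 2.63 CPM per kb (SD, n = 2), Tbc1d9 with 5.61 ± 2.48 and Cyfip2 with 3.86 ± 0.74 CPM per kb, and neighbours in this order differed by less than the larger SD. In set 20 Cyfip2 (4.39 CPM per kb) was above Tbc1d9 (3.86 CPM per kb). Heph (2.45 ± 0.32), Rgs2 (2.44 ± 0.35), Ogfrl1 (1.85 ± 0.72), Jakmip2 (1.48 ± 0.95) and Klhl13 (1.10 ± 0.32 CPM per kb) followed, and neighbours among these 5 differed by less than the larger of their SDs. Hectd2 and Stox2 were lowest, with 0.538 ± 0.017 and 0.467 ± 0.066 CPM per kb. The median of 13702 tested genes with a length was 5.11 CPM per kb in that group, so that the means of Kctd12 and Tbc1d9 lay above it by less than their SDs, and the other 8 below it. Kctd12 was above 57.1% of those genes and Stox2 above 12.4% of them. In the combined group the means of Kctd12 (10.7 CPM per kb), Tbc1d9 (9.34 CPM per kb) and Cyfip2 (5.06 CPM per kb) lay above the median of 5.00 CPM per kb. Cyfip2 did so by less than its SD of 1.10, with 5.83 CPM per kb in set 20 and 4.28 in set 28. Hectd2 (0.746 CPM per kb) and Stox2 (0.555 CPM per kb) were again the lowest.

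The Ring1a knockdown without DS3201 left 9 of the 10 genes at 6 counts or fewer over both libraries, and Ogfrl1 was the exception. Ogfrl1 had 33 counts over the knockdown libraries and 0 over the control libraries, at least 10.02-fold higher. Its mean of 0.897 ± 0.349 CPM (SD, n = 2) in the knockdown group was 5.97% of its mean in the inhibitor group. Both knockdown libraries were above both control libraries, by nearly the same number of counts in each set. Within the sets, 3 of the 10 members were higher with the knockdown in both and 0 were lower in both. Of all tested genes, 34.8% were higher in both sets and 31.1% lower in both, so nothing is read from direction alone. Ogfrl1 did not pass in edgeR over all genes (adjusted p = 1, and adjusted p = 0.705 with the set as a block). Neither did any other gene of the table (0 of 14393, 0% called higher, 103 higher and 52 lower at an unadjusted p under 0.05). Ring1, the target of the shRNA, was among the genes not called, with 4.51 and 1.41 CPM against 20.2 and 9.73 CPM in the control libraries. A missing call in this contrast therefore does not show that a gene was unchanged.

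Among the other 9 genes, the knockdown libraries held 14 counts in all, 3 in set 20 and 11 in set 28, against 2 counts in the control libraries. Tbc1d9 gave 6 of the 14, against 1 control count, 5.46 times the level, where counting error alone allows 0.66 to 251 times (95%). Heph, Rgs2 and Stox2 had 2 knockdown counts each and Kctd12 and Cyfip2 had 1, all over 0 control counts and under the floor of 3 counts. Jakmip2 and Hectd2 were at 0 counts in both groups, and Klhl13 was at 0 in the knockdown group and at 1 count in the control group. For these 9 genes a difference was not detectable at this depth, and none passed in edgeR (adjusted p = 1 for each). DESeq2 also called 0 of the 10, and Ogfrl1 was the single member with an unadjusted p under 0.05. Because the genes were chosen for few counts in both groups, a missing call says nothing of how stable their silence is.

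The counts of Ogfrl1 can be set beside those of other silent genes. Of 7173 genes with 0 counts in both control libraries, 168 (2.34%) had at least 1 count in both knockdown libraries, among them Ogfrl1 and Rgs2. Of the 113 of those genes that reached 1 CPM in all 4 libraries with DS3201, 13 (11.5%) had. The same count in the other direction was not made at the limit of 1 count. Depth also differed between knockdown and control libraries, with 23688253 against 20554685 counts in set 20 and 14782753 against 15345960 in set 28. Nothing is therefore read from these shares. A count of at least 16 in both knockdown libraries, the lower value of Ogfrl1 itself, was found for Ogfrl1 alone of the 7173. In the other direction 0 of 6695 genes with no knockdown counts had 16 or more in both control libraries. The limit of 16 was taken from Ogfrl1 after its values were seen, so these counts describe its place and test nothing.

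**Figure D2:**
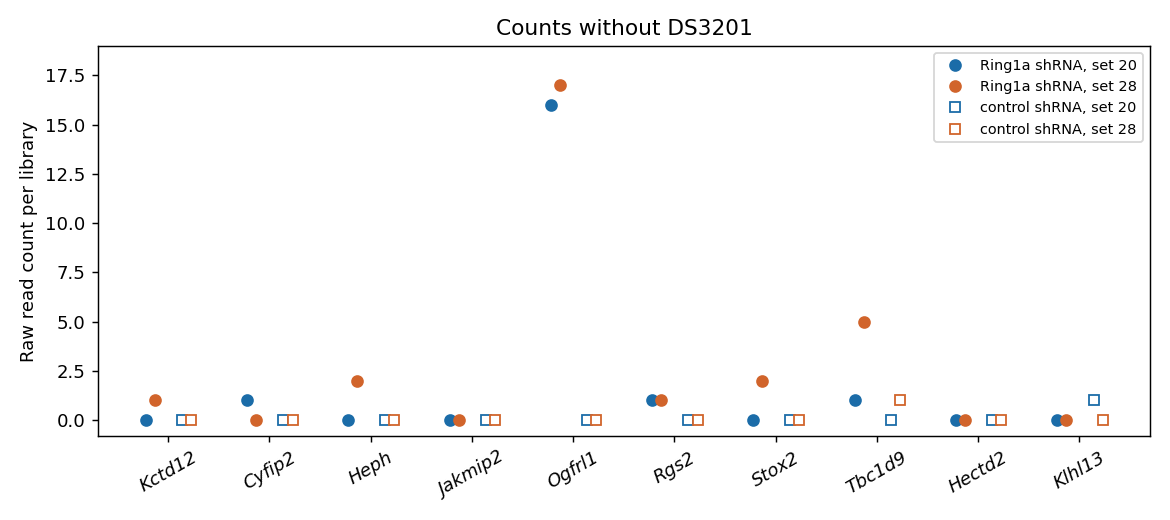
Raw read counts of the 10 genes in the 4 libraries without DS3201, with filled circles for the knockdown group and open squares for the control group, coloured by set. Ogfrl1 stands at 16 and 17 counts in the knockdown libraries and at 0 in the control libraries, and no other gene exceeds 5 counts.

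With DS3201 present, 0 of the 10 genes passed between the Ring1a shRNA and the control shRNA in edgeR in either direction (percent called over all genes 0%, with 123 higher and 143 lower at an unadjusted p under 0.05), and DESeq2 and edgeR with the set as a block also called 0 of the 10. At an unadjusted p under 0.05 there were 0 of the 10 in edgeR, and 2 with the block. With the block, 516 of 14393 tested genes were higher and 585 lower at that limit. Tbc1d9 had the highest estimate, 0.74 ± 0.60 log2 (SE, edgeR adjusted p = 1.00, 1.18 in set 20 and 0.42 in set 28). Both of its combined libraries lay above both inhibitor libraries, as was also so for Hectd2 and Klhl13. How many of all tested genes separated in this way, in either direction, was not counted, so nothing is read from it. Kctd12 had 0.70 ± 0.55 log2 (0.53 and 0.78 within the sets), and Cyfip2 had 0.39 ± 0.37 log2 (0.41 and 0.36). For both the groups overlapped across sets while each set gave the higher value in the combined library. The Kctd12 estimate ran from 0.05, without the combined library of set 28, to 1.20, without the inhibitor library of set 28.

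Heph had -0.57 ± 0.63 log2 (-0.51 and -0.64 within the sets), with both combined libraries below both inhibitor libraries. Jakmip2 had -0.71 ± 0.59 log2 (-0.08 and -1.03), and without the inhibitor library of set 28 its estimate turned to 0.20. Ogfrl1, the gene with counts in the knockdown group, had 0.12 ± 0.43 log2, 0.44 in set 20 and -0.11 in set 28. Hectd2, Klhl13, Stox2 and Rgs2 had 0.47, 0.39, 0.25 and 0.24 log2. In all, 7 of the 10 genes were higher in the combined library of both sets and 2 were lower in both, where 27.1% of all tested genes were higher and 26.2% lower in both. The members' median was 0.32 log2, against -0.01 log2 over all tested genes. The choice of genes used the libraries with DS3201, so this difference in direction is not independent of it. The interaction is the difference between the effects of DS3201 with and without the knockdown. In edgeR 0 of the 10 passed it, and 0% of all tested genes. Ogfrl1 was the 1 member with an unadjusted p under 0.05, where 9 of all tested genes were higher and 10 lower. That contrast includes the knockdown and control libraries, in which Ogfrl1 had 33 and 0 counts.

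**Figure D3:**
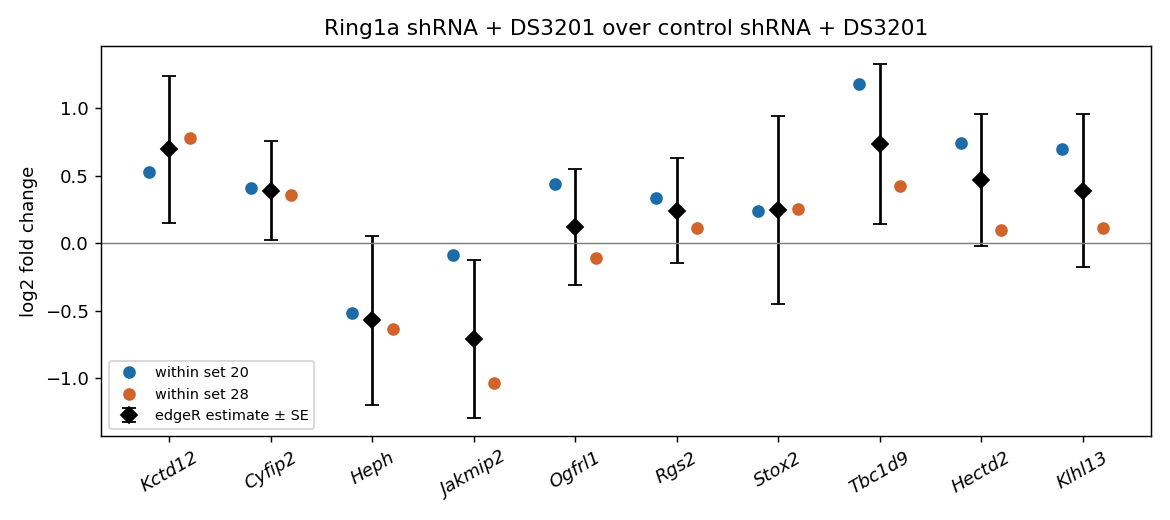
Log2 fold change of each gene in the combined over the inhibitor group, with black diamonds for the edgeR estimate ± SE and coloured points for the difference within set 20 and set 28. Kctd12 and Tbc1d9 lie at 0.70 and 0.74, Heph and Jakmip2 at -0.57 and -0.71, and the other 6 genes between 0.12 and 0.47.

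Promoters were examined because genes that move together may share sequence features that the choice of genes did not use. RefSeq promoter windows of 300 bases, from 250 bases before to 50 bases after the gene start (GRCm38.p6), were at hand for 6 members, Kctd12, Cyfip2, Rgs2, Stox2, Tbc1d9 and Klhl13. CpG dinucleotides (the letters CG, the same on both strands) are dense in the promoters that PRC2 is known to occupy in mammals. The upstream bases of 4 of them, ending just before the most upstream annotated start, are shown to set a CpG-dense promoter beside a CpG-poor one, with each CG in capitals.
Kctd12, chr14:102982638-102982887, minus strand: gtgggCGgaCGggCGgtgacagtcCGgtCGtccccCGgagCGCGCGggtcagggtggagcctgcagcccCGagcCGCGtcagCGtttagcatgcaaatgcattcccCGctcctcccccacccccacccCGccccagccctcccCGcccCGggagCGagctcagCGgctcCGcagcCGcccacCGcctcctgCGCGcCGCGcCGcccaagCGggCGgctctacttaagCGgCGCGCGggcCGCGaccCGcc
Rgs2, chr1:144004162-144004399, minus strand: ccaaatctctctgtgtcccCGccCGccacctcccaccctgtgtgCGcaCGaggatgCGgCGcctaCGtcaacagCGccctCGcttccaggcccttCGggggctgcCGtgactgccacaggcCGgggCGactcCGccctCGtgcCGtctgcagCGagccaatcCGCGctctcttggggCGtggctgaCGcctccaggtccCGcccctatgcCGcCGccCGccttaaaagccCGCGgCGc
Klhl13, chrX:23365083-23365332, minus strand: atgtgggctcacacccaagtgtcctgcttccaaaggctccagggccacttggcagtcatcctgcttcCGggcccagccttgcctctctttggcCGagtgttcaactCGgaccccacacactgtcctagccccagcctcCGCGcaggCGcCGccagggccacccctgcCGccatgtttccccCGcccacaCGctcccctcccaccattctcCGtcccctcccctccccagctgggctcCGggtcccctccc
Tbc1d9, chr8:83165102-83165351, plus strand: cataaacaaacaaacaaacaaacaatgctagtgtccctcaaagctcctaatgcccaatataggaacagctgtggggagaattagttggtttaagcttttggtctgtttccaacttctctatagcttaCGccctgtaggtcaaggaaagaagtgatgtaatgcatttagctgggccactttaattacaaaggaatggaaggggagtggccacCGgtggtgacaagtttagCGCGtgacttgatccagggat

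The 6 promoters ranged from CpG-poor to CpG-dense. Kctd12 had 45 CpG in its 300 bases, a number reached by 2.43% of 16781 promoters of genes in the table. Rgs2 had 33 and Cyfip2 29 CpG, reached by 11.1% and 17.2% of promoters. Klhl13 had 15, reached by 48.1%. Stox2 and Tbc1d9 had 6 and 5 CpG, reached by 68.4% and 72.0% of promoters, although Tbc1d9 was among the 3 highest members with DS3201. The median was 22 CpG over the 6 members, against 14 over all promoters. The letters TATAAA, searched on both strands, were in 0 of the 6 windows and in 12.9% of all promoters. A count of letters does not show which start the RNA used, and Stox2 and Cyfip2 have annotated transcripts that start further upstream.

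**Figure D4:**
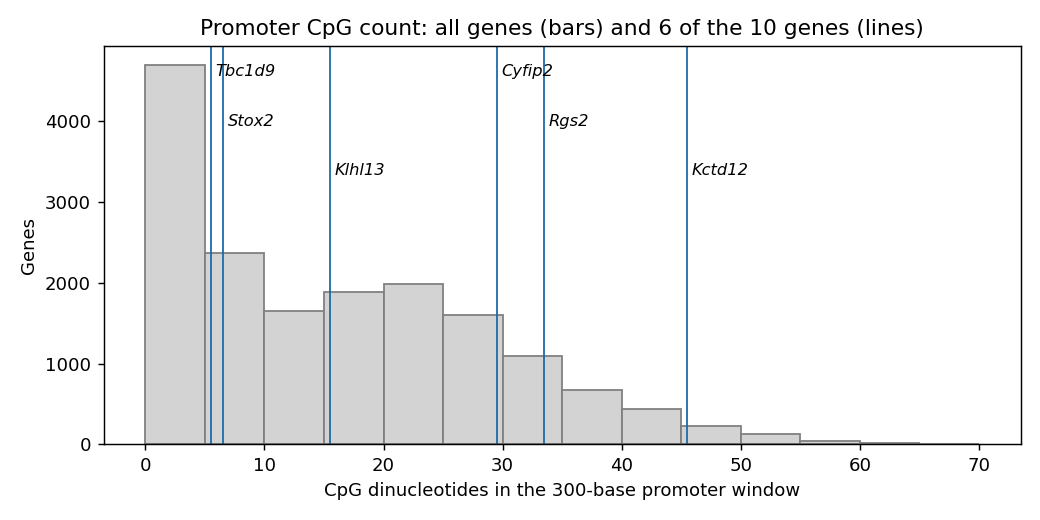
Number of CpG dinucleotides in the 300-base promoter window of 16781 genes (grey bars, bins of 5) and of 6 members (blue lines). Tbc1d9 and Stox2 lie among CpG-poor promoters with 5 and 6 CpG, and Kctd12 lies in the upper tail with 45.

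Relatives of the members were not used in the choice of genes, and most of these families had an expressed member without DS3201. The relatives with the highest mean over all libraries that were well expressed in the control group included Ogfr (171 CPM), Cyfip1 (157 CPM), Klhl9 (138 CPM), Tbc1d8b (90.6 CPM), Kctd12b (34.9 CPM), Rgs16 (12.8 CPM) and Cp (7.44 CPM). Klhl9 is the partner of Klhl13 in the CUL3 ligase, and Cyfip1 takes the place of Cyfip2 in WAVE complexes. Kctd12b, a close relative of Kctd12, had 1227 control counts while Kctd12 had 0. The handling of reads that match both is not given in the sources used here, so levels of these 2 genes are uncertain where reads could be split.

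With DS3201 in control shRNA cells, 0 of 18 tested relatives passed in edgeR, with 26 listed, and 14 of the 18 had a positive estimate (median 0.56 log2, against 0.04 over all tested genes). DESeq2 called 2. With the set as a block 2 rose, where 6.82% of all tested genes rose. Cp, which encodes ceruloplasmin, like hephaestin a copper-dependent ferroxidase, had 72.7 and 49.9 CPM in the inhibitor group, against 10.8 and 4.09 CPM in the control group. Its log2 fold change was 3.04 ± 0.63 (SE), with adjusted p = 0.101 in edgeR, and 3.15 ± 0.25 with adjusted p = 0.00134 with the block. Cp also had 18.7 and 8.21 CPM in the knockdown group, above the control library in each set, and did not pass there. Tbc1d8, a relative of Tbc1d9, had 14.5 and 11.7 CPM in the inhibitor group, against 5.32 and 6.51 CPM in the control group (1.16 ± 0.25 log2, adjusted p = 0.0407 with the block and 0.145 without it in edgeR).

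The relatives of Jakmip2 were silent without DS3201, like Jakmip2 itself. Jakmip1 and Jakmip3 had 0 counts in all 4 libraries without DS3201. Jakmip1 had 11 and 29 counts in the combined group, against 0 in the knockdown group, at least 16.7-fold higher (adjusted p = 0.031 with the block and 0.218 without it in edgeR). In the inhibitor group it had 3 and 10 counts. Jakmip1 passed the filter on low counts only through the groups with DS3201, so a higher level there was built in, and the call supports nothing. Without DS3201 the knockdown moved none of the 18 relatives past the threshold in edgeR with or without the block, nor in DESeq2.

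Partners and pathway genes, a list of 21 tested genes, were mostly expressed without DS3201. With DS3201 in control shRNA cells 1 of the 21 rose and 0 fell in edgeR, where 0.757% of all tested genes rose, and the median was 0.09 log2, against 0.04 over all tested genes. The gene that rose was Wasf3, which encodes a WAVE protein of the complex that holds Cyfip2. Wasf3 had 9.40 and 12.6 CPM in the inhibitor group, against 0.0950 and 0.134 CPM in the control group (6.52 ± 0.51 log2, adjusted p = 0.00959 in edgeR). With 2 counts in each control library it too passed the filter only through the groups with DS3201, so its call was fixed in part by the filter. In Ring1a shRNA cells it had 9.67 and 7.73 CPM with DS3201, against 0.122 and 0.0673 CPM without it (6.36 ± 0.51 log2, adjusted p = 0.00805 in edgeR). Without the control library of set 20 or of set 28, either combined library or the inhibitor library of set 28, 0 partners passed in control shRNA cells. The other WAVE genes Wasf1, Wasf2, Abi1, Abi2 and Nckap1 lay between 27.6 and 305 CPM in the control group and did not pass.

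With the set as a block, 3 of the 21 partners were called higher with DS3201 in control shRNA cells, where 6.82% of all tested genes were, Wasf3 among the 3. Atp7b, a copper-transporting ATPase, had 3.28 and 2.56 CPM in the inhibitor group, against 0.333 and 0.0671 CPM in the control group (3.72 ± 0.64 log2, adjusted p = 0.0194 with the block and 0.0934 without it in edgeR). Its highest level without DS3201 was 0.538 CPM, in the knockdown library of set 28. Atp7b thus passed the filter only through the groups with DS3201, and its call was fixed in part by the filter. Nckap1l, a WAVE subunit of blood cells, had 4.30 and 0.442 CPM in the inhibitor group, against 0.855 and 0.134 CPM in the control group (2.19 ± 0.49 log2, adjusted p = 0.0428 with the block and 0.654 without it in edgeR). Most of its counts came from set 20. The GABA-B receptor genes Gabbr1 and Gabbr2, whose products Kctd12 binds, and Gnaq and Gna11, whose products Rgs2 acts on, did not pass. Neither did Cul3, Rbx1 and Aurkb.

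Subunits of the complexes themselves did not pass with DS3201 in control shRNA cells, with 0 of 19 PRC1 genes and 0 of 11 tested PRC2 genes in edgeR. With the block 3 of the 19 PRC1 genes rose, where 6.82% of all tested genes rose. They were Bmi1 (0.95 ± 0.17 log2), Phc1 (0.71 ± 0.15 log2) and Rybp (1.02 ± 0.17 log2, adjusted p = 0.0227, 0.0354 and 0.0187 in edgeR).

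Neighbours on the chromosome were examined for changes beside the members. For each member the nearest protein-coding gene of the table on each side was taken, 20 genes in all. The side was set by the start coordinate, so a gene that overlaps a member or lies within it could be taken. Of these, 14 could be tested and 6 had too few counts. None of the 14 passed with DS3201 in control shRNA cells in edgeR, 12 had a positive estimate, and the median was 0.79 log2, against 0.04 over all tested genes. With the set as a block 5 rose and 0 fell, where 6.82% of all tested genes rose and 0.75% fell. DESeq2 called 5, and its share over all genes is not given.

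The 5 that rose with the block were all near 0 in the control group. Rnf150, a RING-finger gene 74083 bases from Tbc1d9, had 13.6 and 7.77 CPM in the inhibitor group, against 0 and 0.0671 CPM in the control group (adjusted p = 0.0121 with the block and 0.0858 without it in edgeR). Fndc9, a gene that lies within Cyfip2 on the opposite strand, had 52 and 39 counts in the inhibitor group, against 0 in the control group, at least 37.6-fold higher (adjusted p = 0.00832 with the block and 0.0545 without it in edgeR). Nipal4 lies outside Cyfip2, 27341 bases away on the side of lower coordinates. It had 24 and 14 counts in the inhibitor group, against 1 and 0 in the control group (adjusted p = 0.0119 and 0.0693 in edgeR with and without the block). The counting is not stated to use strand, so reads of Fndc9 and Cyfip2 may not be told apart. Cyfip2 was the 1 member for which both genes taken as neighbours passed with the block. Because Fndc9 lies within Cyfip2, the gene beyond Cyfip2 on the side of higher coordinates was not examined.

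Gpr165, an orphan receptor gene 138955 bases from Heph, had 92 and 13 counts in the inhibitor group, against 0 in the control group, at least 43.4-fold higher (adjusted p = 0.0119 with the block and 0.152 without it in edgeR). Enpp6, a choline phosphodiesterase gene 83285 bases from Stox2, had 44 and 32 counts in the inhibitor group, against 0 in the control group, at least 31.4-fold higher (adjusted p = 0.019 and 0.0736 in edgeR with and without the block). Hsf3, which overlaps the start of Heph, had 1 and 28 counts in the inhibitor group and 0 in the control group, and did not pass. All 5 were also called with the block in Ring1a shRNA cells. Without DS3201, Nipal4 had 4 and 2 counts and Rnf150 0 and 5 counts in the knockdown group, against 1 and 0 counts and 0 and 1 counts in the control group, and neither passed.

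These 6 silent neighbours passed the filter on low counts only through the groups with DS3201. A higher level with DS3201 was thus built in, though a call was not, and the calls support nothing. The table had 2266 tested genes whose control mean was below 1 CPM, and 745 of them (32.9%) rose with the block. That pool reaches up to 1 CPM, while these neighbours had at most 1 count in a control library. The pool is thus not matched to them in level, and nothing is read from the comparison. The other 6 neighbours were too low to test, and all had 0 counts in the 4 libraries without DS3201. Scgb3a2, beside Jakmip2, and 4933415F23Rik, beside Ogfrl1, had 0 counts in both inhibitor libraries. Ucp1, the brown-fat uncoupling protein gene 17417 bases from Tbc1d9, also had 0 in both inhibitor libraries, and 1 and 3 counts in the combined libraries. Slc6a14, the nearest gene below Klhl13, had 1 and 0 counts in the inhibitor group. Ppp1r3c, beside Hectd2, had 1 and 3 counts in the inhibitor group, with 3 and 7 in the combined group. Rgs13, a relative of Rgs2 at 134492 bases, had 2 and 17 counts in the combined group and 5 and 6 counts in the inhibitor group. The 8 neighbours above 1 CPM in the control group did not pass with or without the block. They include Pcgf5, a PRC1 gene 93668 bases from Hectd2, with 34.4 and 28.2 CPM in inhibitor libraries, against 24.6 and 10.4 CPM in control libraries. Lmo7, 1041870 bases from Kctd12, was expressed without DS3201, with a control mean of 47.3 CPM.

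**Figure D5:**
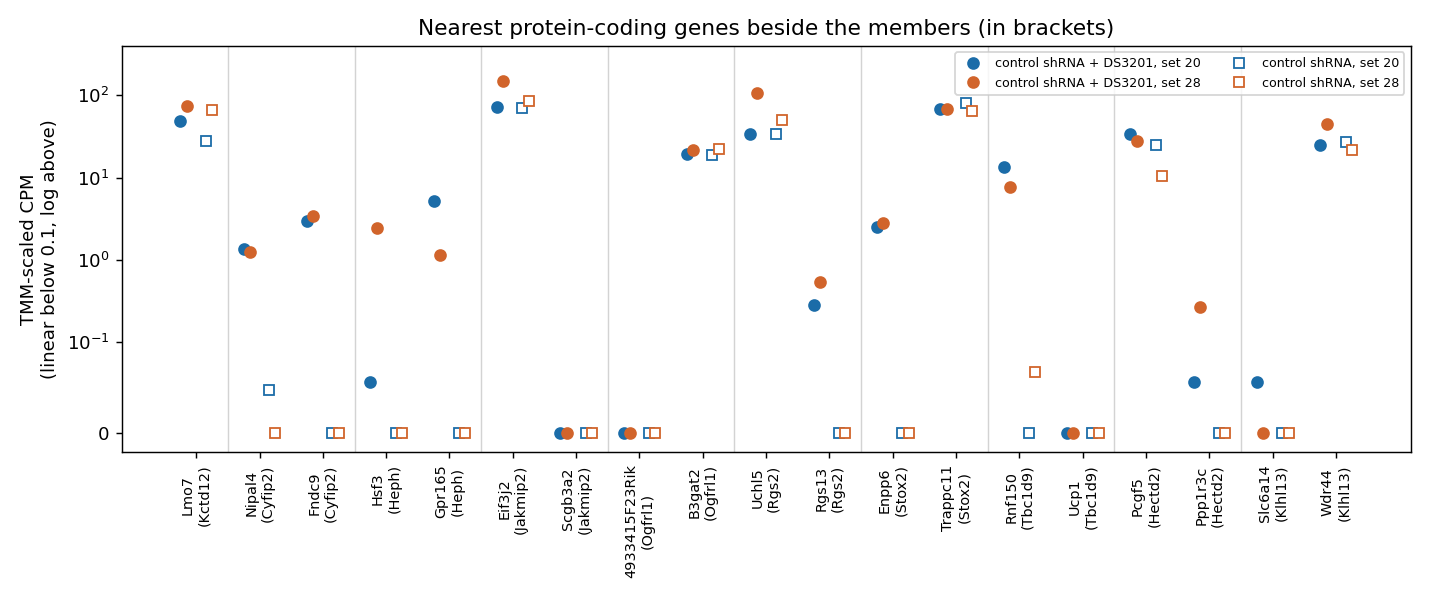
TMM-scaled CPM of 19 of the 20 nearest protein-coding genes beside the members (member in brackets), on an axis that is linear below 0.1 and logarithmic above, with filled circles for the inhibitor group and open squares for the control group, coloured by set. Rnf150, Fndc9, Nipal4, Gpr165 and Enpp6 lie near 0 in the control group and above 1 CPM in both inhibitor libraries, and the plotted neighbours expressed without DS3201 show no such gap.

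The genes whose levels over the 8 libraries were most like the mean of the members, among 14383 other tested genes, were Gfpt2, Fndc9, Gzme, Tcte1 and Pramef12, with Pearson correlations of 0.998, 0.998, 0.997, 0.997 and 0.997 on the log2 scale. The libraries share sets and DS3201, and 485 genes had a correlation over 0.95, so the likeness is mostly the step between libraries without and with DS3201. Fndc9 lies within the member Cyfip2, and reads of these genes may not be told apart, so its likeness is not independent of the members. Gfpt2, a rate-limiting enzyme of hexosamine synthesis, had 12.7 and 14.3 CPM in the combined group, 9.06 and 16.2 CPM in the inhibitor group, 0.0812 and 0.135 CPM in the knockdown group, and 0.0475 and 0 CPM in the control group. Gzme, a granzyme gene, and Pramef12, of the PRAME family, had 0 counts in all 4 libraries without DS3201. In the inhibitor group Gzme had 36 and 26 counts and Pramef12 had 39 and 38 counts. Tcte1, a testis gene, had 18 and 14 counts in the inhibitor group and 0 counts in the control group.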

How the data were processed

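Poly(A) RNA libraries from 8 samples were used, 2 for each of the labelled groups (4). The authors deposited raw counts, not normalized, per gene symbol and repeat subfamily. Trim Galore, TopHat2 and mm10 are named in the submitters' processing notes. No source used here names the counting tool or its annotation. Column names gave the group and a prefix, 20 or 28, called the set. Replicate numbers in the labels stand for batches, without a link to the prefixes. A further 8 columns fit no sample in the labels and stayed unused.

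Testing used edgeR 4.0.16 under R 4.3.3: filterByExpr (15287 of 25215 entries tested), TMM scaling, and a robust quasi-likelihood fit to all 8 libraries with 1 term per group. Tests were two-sided F tests with Benjamini-Hochberg adjustment over all entries and a threshold of 0.05. CPM values use TMM-scaled library sizes, and log2 values within sets and correlations a prior count of 2. A standard error is the log2 fold change over the root of F, and is not given with a group at 0 counts. The script was tested on simulated data. The differences between the sets correlated between groups over genes with r of 0.559 to 0.897, so the set entered an alternative fit as the replicate block. DESeq2 1.42.0, RLE scaling, no filter, fits to the compared libraries and leaving out each library were the other alternatives. Counting intervals (95%, exact binomial) and floors (3 counts over a group) cover counting error only, because the reads carry no molecular identifiers.

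Gene positions, neighbours and exon lengths are from GENCODE M21 (GRCm38, the assembly of mm10). Promoters are from RefSeq, using the most upstream start of each gene. The members and lists were chosen with earlier results of these data known. Named from the relatives, partners and neighbours were each gene called in any contrast with or without the block, and the highest relative of each member. Other genes of the lists, markers and PRC1 genes included, were named after their values were seen. Genes most like the members were the 5 with the highest correlation, without predicted models. Values of 1 relative and 1 neighbour are not reported here.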

Additional observations from a re-analysis of the deposited data

How the results depend on the processing

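With the set as a replicate block, or in DESeq2, RLE scaling or without a filter, 8 to 10 members were called with DS3201 in either background. The share of all genes called is given only for the main fit and the block fit. Counts of called genes in the other fits therefore lack a background, and nothing is read from their agreement. In fits to the compared libraries alone 0 were called with control shRNA and 0 with Ring1a shRNA. Leaving out 1 library gave 0 to 10 calls in both: 0 without either inhibitor or combined library, and 0 or 1 without a library of the shRNA group being compared that had no DS3201 (control or knockdown, set 20 or set 28). All 20 of these log2 fold changes stayed positive in every other fit. They were not computed in fits to the compared libraries. The cause of the lost calls was not tested. The knockdown contrasts and the interaction gave 0 members in every fit. Relatives called with DS3201 were 2 with the replicate block, 2 in DESeq2 and 2 in a block fit that drops the set 28 inhibitor library, chosen after the data were seen, and 0 to 0 with 1 library left out. Partners were 3, 2 and 2 in the same fits, 0 in the compared libraries and 0 to 1 with 1 library left out. Neighbours were 5, 5 and 4, 2 without a filter and 0 to 2 with 1 library left out (2 without either knockdown library). With 1 library left out, the log2 fold change of the combined over the inhibitor group ran from -1.25 to 0.20 for Jakmip2, turning without the inhibitor library of set 28, and from -0.24 to 0.62 for Ogfrl1, which reached -0.24 without the inhibitor library of set 20 and -0.021 without the combined library of set 28. A lone library left in a group was assumed to vary like the other groups. At 3 counts, 0.122 to 0.265 CPM, depth limits what can be said of any member without DS3201.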
